A study of Mus musculus with 6 samples.

Results

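The uncoupling proteins Ucp1, Ucp2 and Ucp3 and the thermogenic genes Cidea, Dio2 and Elovl3 were followed in atrial RNA of obese and lean mice. These 6 genes were taken by name from the 43432 genes of the deposited table, where names are in capitals, and each was found once. They were chosen by their normalized counts in these same libraries, with the difference between obese and lean atria already known, so that difference is given as a description without a test. The obese group consisted of C57/Bl6J mice on a high fat diet (HFD) and the lean group of mice of the same strain on control chow. Both diets began at 6 weeks of age and lasted 10 weeks, after which tissue of the right and left atria was taken. There were 3 libraries in each group, numbered 1 to 3 and called mice here, although the labels do not say whether a library came from 1 animal, so that the spread between libraries may be partly technical. The groups follow the sample titles and column names, whereas in the labels the field named treatment carries the other diet in each of the 6 samples. Values are normalized counts, which are reads per gene divided by 1 size factor per library.

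Uncoupling proteins are carriers of the inner mitochondrial membrane. UCP1 lets protons return to the matrix without ATP synthesis and so releases heat in brown and beige adipocytes, where noradrenaline acting through β-adrenergic receptors and cAMP switches the gene on. UCP3 is found mainly in skeletal muscle, heart and brown fat and follows the supply of fatty acids, while UCP2 is widely expressed, with high levels in leukocytes. CIDEA enlarges lipid droplets, DIO2 converts thyroxine to the active thyroid hormone T3 inside the cell, and ELOVL3 elongates very long chain fatty acids. These last 3 are commonly used, together with UCP1, as genes of thermogenic fat.

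The libraries held between 15874251 and 28971508 reads on genes, with lean mouse 2 the deepest, and mitochondrial genes took 19.5% to 24.4% of the reads in 5 libraries and 30.7% in lean mouse 2. Lean mouse 2 also had the highest summed level of 4 ventricular myocyte markers, 13770.5 normalized counts against 4262 to 6415 in the other mice. Atrial myocyte markers were abundant in every library, with 8 markers summing to 709289, 833379 and 1299010 normalized counts in obese mice 1, 2 and 3. In lean mice they summed to between 1091010 and 1147060. Obese mice 1 and 2 were thus below every lean mouse and obese mouse 3 above every lean mouse. Of 4 lung markers, Sftpb and Scgb1a1 were at 0 in all libraries and Sftpc and Sftpa1 had 1 and 3 reads in obese mouse 3 and 0 elsewhere, and 7 lymphocyte markers summed to at most 38.1 normalized counts.

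The regions just upstream of the transcription starts are shown first, because nuclear receptors and the cAMP-responsive factor CREB, regulators known for these genes, recognize short motifs. For Ucp1, Ucp2, Ucp3 and Dio2 the 250 bases before the RefSeq start (GRCm38.p6) are printed from 5′ to 3′ on the strand of the gene. Cidea was not looked up, and the set of starts used here held none for Elovl3. Capitals mark AGGTCA, the core motif bound by nuclear receptors such as the PPARs and thyroid hormone receptors, TGACGTCA, the complete cAMP response element, and TATAAA, the start-site element bound by the general transcription machinery. Each was searched on both strands.
Ucp1: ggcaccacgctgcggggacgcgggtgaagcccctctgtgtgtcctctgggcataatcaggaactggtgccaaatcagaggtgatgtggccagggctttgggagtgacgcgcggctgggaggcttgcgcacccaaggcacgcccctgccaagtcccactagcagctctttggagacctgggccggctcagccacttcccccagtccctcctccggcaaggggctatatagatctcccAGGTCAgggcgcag
Ucp2: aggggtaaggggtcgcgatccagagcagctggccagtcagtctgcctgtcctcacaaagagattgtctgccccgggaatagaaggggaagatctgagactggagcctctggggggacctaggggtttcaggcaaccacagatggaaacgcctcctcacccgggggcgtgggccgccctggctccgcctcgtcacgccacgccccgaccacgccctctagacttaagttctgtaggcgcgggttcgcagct
Ucp3: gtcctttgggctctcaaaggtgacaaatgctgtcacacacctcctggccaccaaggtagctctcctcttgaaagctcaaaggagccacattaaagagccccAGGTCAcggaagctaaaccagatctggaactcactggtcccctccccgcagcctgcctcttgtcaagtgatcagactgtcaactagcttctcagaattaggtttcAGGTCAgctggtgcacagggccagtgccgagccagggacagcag
Dio2: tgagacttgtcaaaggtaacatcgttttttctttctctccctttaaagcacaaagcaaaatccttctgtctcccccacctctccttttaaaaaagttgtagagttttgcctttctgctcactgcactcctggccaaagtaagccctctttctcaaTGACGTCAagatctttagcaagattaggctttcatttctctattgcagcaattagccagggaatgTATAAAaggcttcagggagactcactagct
The windows lie at chr8:83290098-83290347 on the plus strand for Ucp1, chr7:100493108-100493357 on the plus strand for Ucp2, chr7:100472741-100472990 on the plus strand for Ucp3 and chr12:90739039-90739288 on the minus strand for Dio2. Ucp3 held 2 copies of AGGTCA, starting at positions -149 and -44, where -1 is the last base before the start, and Ucp1 held 1 copy starting at -14. In Dio2 a complete cAMP response element ran from -95 to -88 and a match of TATAAA from -30 to -25, and the Ucp2 window held none of these motifs. Of 32851 mouse windows of the same length, 14% held AGGTCA, 1.55% the complete cAMP response element and 12.4% TATAAA. G and C made up 64.8% of the Ucp1 window, 63.6% of that of Ucp2, 54.8% of that of Ucp3 and 41.6% of that of Dio2. A match is a match of letters and no measurement of binding.

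The 5 members other than Elovl3 were higher in every obese mouse than in any lean mouse. For Elovl3 the listed values were ordered in the same way, but its few reads do not separate obese mouse 2 from the lean mice. Among the 15275 genes that averaged 10 normalized counts or more, which were the genes tested, 8.86% were placed in this way, and 5 of the 6 members are among those 15275. Elovl3 was below the mean required. As the members were picked for this contrast, nothing is read from their count.

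**Figure D1:**
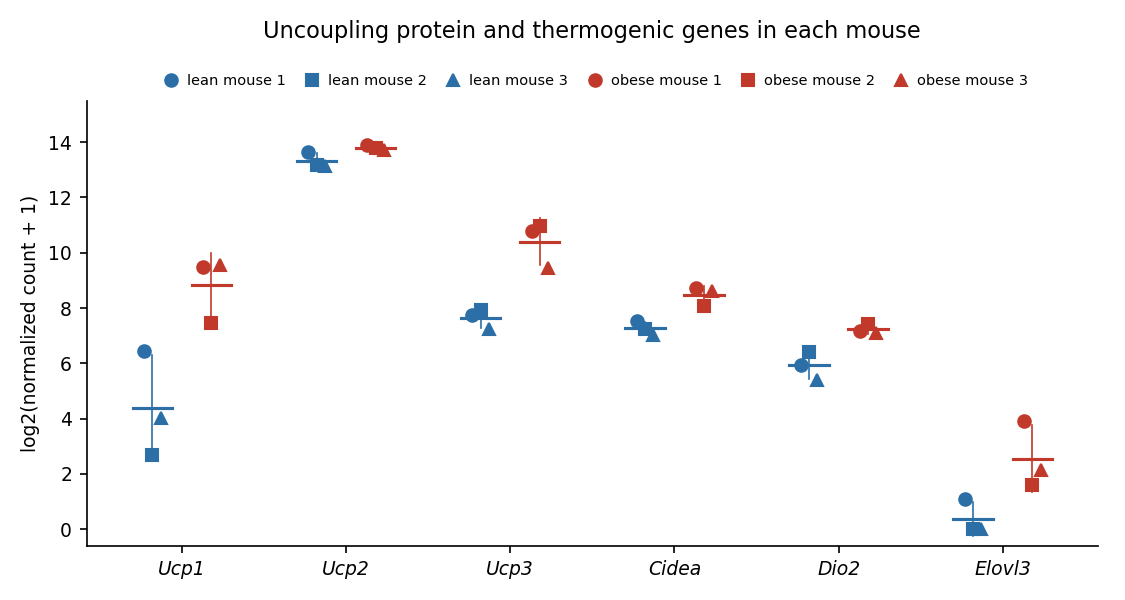
Level of the 6 genes in each of the 6 mice, as log2(normalized count + 1). Blue symbols are lean and red symbols obese mice, horizontal lines are group means and vertical lines 1 SD (n = 3). The plotted values of the 3 obese mice lie above those of the 3 lean mice, which for Elovl3 rests on 0 to 14 reads per mouse, with the widest gap between group means for Ucp1 and the narrowest for Ucp2.

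Ucp1 (ENSMUSG00000031710, chromosome 8 of GRCm38 from 83290348 to 83298456, plus strand) had 706, 173 and 745 normalized counts in obese mice 1, 2 and 3 and 86.2, 5.48 and 15.3 in lean mice 1, 2 and 3. The lean values rest on 77, 8 and 14 reads. The groups did not overlap, but both were widely spread, with obese mouse 2 far below the other obese mice and lean mouse 1 far above the other lean mice. The lowest obese value was 2.01 times the highest lean value. The mean was 542 ± 319 for obese atria and 35.7 ± 44.1 for lean atria (SD, n = 3 each), a ratio of 15.2, and the log2 fold change on the log2(normalized count + 1) scale was 4.43 (standard error 0.83). With 1 mouse left out in turn it ranged from 3.58, without lean mouse 2, to 5.46, without lean mouse 1.

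Ucp3 (ENSMUSG00000032942, chromosome 7 from 100472990 to 100486432, plus strand) had 1778, 2003 and 691 normalized counts in obese mice 1, 2 and 3. In lean mice 1, 2 and 3 it had 212, 244 and 151. The groups were well apart, the lowest obese value being 2.83 times the highest lean value, and within the obese group mouse 3 was the low one. The means were 1491 ± 702 and 202 ± 47.1 (SD, n = 3 each), 7.38 times as much in obese as in lean atria, with a log2 fold change of 2.76 (standard error 0.35). Gm10603, an antisense gene that overlaps Ucp3, had 77.4, 81.6 and 42.0 normalized counts in obese and 33.6, 24.6 and 29.5 in lean mice, so that its groups did not overlap either. Its part in the counts of Ucp3 was not tested. The paper names a directional library kit, but whether reads were assigned by strand is not given in the sources used here.

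Ucp2 (ENSMUSG00000033685, chromosome 7 from 100493337 to 100502020, plus strand) starts 6904 bases after the end of Ucp3 and is its neighbor on the same strand. It had 15317, 14163 and 13554 normalized counts in obese mice and 12844, 9202 and 8964 in lean mice. The obese mice were close together, while lean mouse 1 stood above the other lean mice and nearly reached the obese ones, the lowest obese value being 1.06 times the highest lean value. The means were 14345 ± 895 and 10336 ± 2175 (SD, n = 3 each), a ratio of 1.39 and a log2 fold change of 0.49 (standard error 0.15). Ucp2 thus had by far the highest counts of the 3 uncoupling proteins and the narrowest difference between the groups, and the neighbor genes Ucp2 and Ucp3 differed in how far apart the groups were.

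Levels of different genes can be compared only per length of transcript, taken here as the longest coding transcript in the GENCODE basic set. Ucp2 had 2592 ± 545 normalized counts per kb in lean atria, Ucp3 had 82.5 ± 19.3 and Ucp1 21.8 ± 26.9 (SD, n = 3 each). In obese atria the same levels per kb were 3597 ± 224, 609 ± 287 and 331 ± 195. The order was thus Ucp2, Ucp3, Ucp1 in the group means of both, but Ucp3 and Ucp1 did not differ beyond their spread in the obese group, where mouse 3 had more Ucp1 (455 per kb) than Ucp3 (282 per kb). Ucp2 exceeded Ucp3 by 31.4 times per kb in lean and 5.91 times in obese atria. As a share of the summed level per kb of the 3 genes, Ucp2 made up 95.7% to 96.9% in lean mice and 76.8% to 82.2% in obese mice. Ucp3 made up 2.57% to 4.13% in lean mice and 6.82% to 18.3% in obese mice, while the share of Ucp1 was 0.139% to 1.57% in lean mice and 2.37% to 11.0% in obese mice. The second place after Ucp2 went to Ucp3 in obese mice 1 and 2 and to Ucp1 in obese mouse 3.

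**Figure D2:**
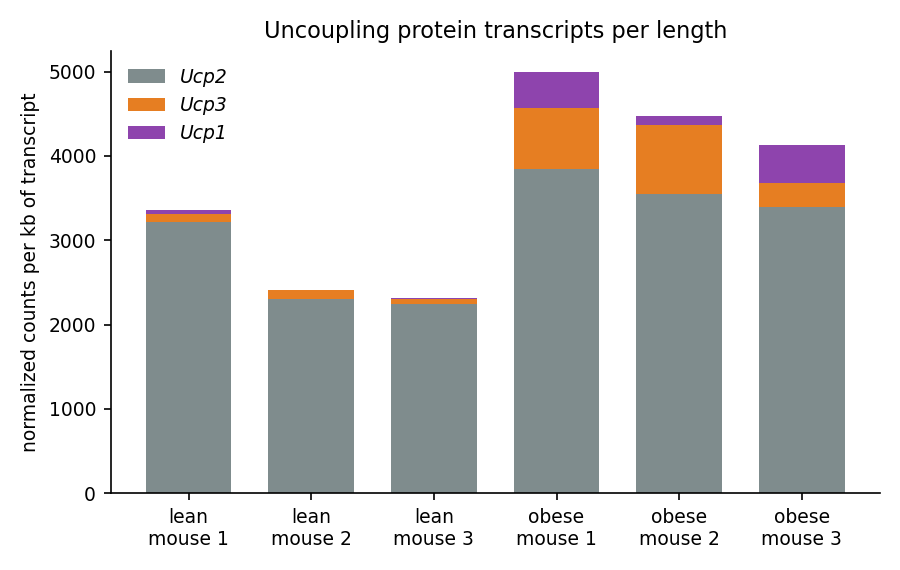
Normalized counts per kb of transcript of Ucp2 (gray), Ucp3 (orange) and Ucp1 (purple), stacked for each mouse from 0. Ucp2 fills nearly the whole bar in lean mice, with summed levels of 2319 to 3360 per kb, and obese mice reach 4136 to 4999 per kb with visible parts of Ucp3 and Ucp1.

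Cidea (ENSMUSG00000024526) had 419, 268 and 391 normalized counts in obese mice 1, 2 and 3 and 183, 149 and 130.1 in lean mice 1, 2 and 3. As for Ucp1, obese mouse 2 was the lowest of its group and lean mouse 1 the highest. The means were 359 ± 80.1 and 154 ± 26.5 (SD, n = 3 each), a ratio of 2.33 and a log2 fold change of 1.21 (standard error 0.21). B430212C06Rik overlaps Cidea on the opposite strand, with 32.2 to 77.4 normalized counts and overlapping groups.

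Dio2 (ENSMUSG00000007682, chromosome 12 from 90724554 to 90738438, minus strand) was at a similar distance between the groups as Cidea but with another order of the mice. Its normalized counts were 144, 172 and 136 in obese mice 1, 2 and 3 and 60.5, 84.2 and 41.5 in lean mice 1, 2 and 3, so mouse 2 was the highest in both groups. The means were 151 ± 19 and 62.1 ± 21.4 (SD, n = 3 each), a ratio of 2.43 and a log2 fold change of 1.32 (standard error 0.27). Per kb, Dio2 reached 25.9 ± 3.28 in obese atria against 10.7 ± 3.67 in lean atria, below Cidea with 322 ± 71.9 and 138 ± 23.8 (SD, n = 3 each). The RefSeq start of Dio2 lies beyond the gene as bounded in the deposited table.

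Elovl3 (ENSMUSG00000038754, chromosome 19 from 46131897 to 46135307, plus strand) was near the limit of detection. It had 14, 2 and 3 reads in obese mice 1, 2 and 3 and 1, 0 and 0 reads in lean mice 1, 2 and 3. A count of 0 allows up to 3 reads, or 2.05 normalized counts in lean mouse 2 and 3.28 in lean mouse 3, so obese mouse 2, with 2.04 normalized counts, was not above what the lean libraries allow. The sum of 19 reads against 1 read, at the libraries' size factors, gives a ratio of 21.7. It is a description only, because reads are not replicates of the diet, and 14 of the 19 came from obese mouse 1. Without obese mouse 1 the ratio was 8.78 and without lean mouse 2 it was 12. Without lean mouse 1 the lean group had 0 reads and no ratio was formed, so the value rests on obese mouse 1 and on a single lean read.

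The mice within a group were then compared, which does not use the difference between the groups. Each gene's log2 values were centered on its group means and correlated over the 6 libraries, and these correlations are a description of 6 points that share libraries and depths. For Ucp1 the correlation was 0.78 with Cidea, 0.76 with Ucp2, -0.34 with Ucp3 and -0.43 with Dio2. Ucp3 had 0.59 with Dio2 and 0.30 with Ucp2. Correlations between members thus had both signs in these 6 libraries, which are too few to say whether the members vary together. Ucp1 and Cidea shared their low obese mouse (2) and high lean mouse (1), and Ucp3 had its low obese mouse elsewhere (3).

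The same was done with lists of other genes. Cidea had a median correlation of 0.82 with 10 adipocyte markers (range 0.46 to 0.98, all 10 above 0), and Ucp2 had 0.72 (0.23 to 0.89) and Ucp1 0.62 (-0.04 to 0.99), against medians of 0.01, -0.01 and 0.02 over all genes. The marker at the upper end was Plin1, the perilipin of adipocyte lipid droplets, for Cidea and Nnat for Ucp1. Other lists came near these medians. Ucp1 had 0.60 with 4 skeletal muscle markers (all 4 above 0). Cidea had 0.67 with 10 macrophage markers (8 above 0) and 0.65 with 9 relatives of the uncoupling proteins (7 above 0). For Ucp3 the adipocyte markers had a median of 0.29 (range -0.69 to 0.76) and 16 genes of fatty acid oxidation had 0.73 (0.06 to 0.96, all 16 above 0), led by Acot2 with 0.96 and Cd36 with 0.89. Ucp2 also had correlations above 0 with all 16, with a median of 0.58 and 0.99 for Angptl4. The list farthest from 0 for Ucp3 was that of 8 atrial myocyte markers, with a median of -0.79 (-0.93 to 0.47), in which the atrial myosin light chains Myl7 and Myl4 had -0.93 and -0.88. Dio2 had medians of 0.29 with the adipocyte markers and 0.35 with the oxidation genes, and 0.73 with 4 ventricular myocyte markers (0.07 to 0.83, all 4 above 0), among them Irx4 with 0.83 and Myl2 with 0.81. Lean mouse 2, which stood apart in the ventricular markers, was the highest lean mouse for Dio2, and without it the log2 fold change of Dio2 was 1.56. Within the obese group Dio2 and the summed ventricular markers had opposite orders. In obese mice 1, 2 and 3 the 4 markers summed to 5080, 4326 and 6415 normalized counts, while Dio2 had 144, 172 and 136. Obese mouse 3, the low one for Ucp3, was the lowest obese mouse in 12 of the 16 oxidation genes, against 36.2% of all genes tested. Obese mouse 2, the low one for Ucp1 and Cidea, was the lowest in 7 of the 10 adipocyte markers, against 33.1% of all genes, and lean mouse 1 the highest lean mouse in 9 of 10, against 34.2%. The genes of a list are not independent of each other, and no test was made. The correlations also rest on few libraries. Ucp1 was most spread in the lean mice, with 77, 8 and 14 reads, the highest value being 15.7 times the lowest, against 4.3 times in obese mice. Ucp3 was most spread in the obese mice (2.9 times, against 1.62 times in lean mice), through obese mouse 3.

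For single genes such likeness says little, because 93, 88 and 156 of 15274 genes had a centered correlation of at least 0.95 with Ucp1, Ucp2 and Ucp3. Among the 5 nearest were Vdac3-ps1, Fam83g, Lrrc17 and Sf3a2 for Ucp1 (0.994 to 0.996), Tnfsfm13, Sorbs3, Baiap2, Pbx2 and Zfp688 for Ucp2 (0.996 to 0.997) and Nudt6, Hs6st2, Tcta, Gm6682 and Gadd45a for Ucp3 (0.996 to 0.999), over 6 libraries.

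Ucp1 and Cidea are genes of adipocytes, so the adipocyte markers are given beside them. In bulk tissue, a change in the number of cells of a type and a change in RNA per cell cannot be told apart. The 10 adipocyte markers summed to between 7986 and 15385 normalized counts in obese mice and between 4156 and 9134 in lean mice, so the groups overlapped, and none was at 0 in all mice. Their log2 fold changes had a median of 0.60, with 9 of 10 above 0. Limma gave 0 of the 10 an adjusted p under 0.05, with 3 at an unadjusted p under 0.05, all higher (Fabp4, Pparg and Nnat), while edgeR called 0 and DESeq2 1 (Fabp4). Adipoq, which encodes the hormone adiponectin, had 533, 146 and 170.4 normalized counts in obese and 334, 149 and 67.8 in lean mice, with overlapping groups. Lep, which encodes leptin, had 9.04, 2.04 and 27.3 in obese and 44.8, 19.2 and 16.4 in lean mice, and the groups overlapped here too. Obese mouse 2 and lean mouse 2, a pair picked after the values were seen, had nearly the same Adipoq, with Ucp1 at 173 and 5.48. The ratio of Ucp1 to Adipoq counts was 1.32, 1.19 and 4.37 in obese mice and 0.258, 0.0369 and 0.226 in lean mice, and those of Ucp1 to Plin1 were 1.44, 1.89 and 2.57 against 0.265, 0.0286 and 0.189. Against Fabp4 the ratios were 0.0801, 0.0276 and 0.147 in obese and 0.0204, 0.00131 and 0.00519 in lean mice, so that obese mouse 2 was close to lean mouse 1. As Ucp1 was chosen by its difference between the groups, nothing is read from that pair or from the order of these ratios. Whether the amount or the kind of fat on the atria had a part in the levels of Ucp1 and Cidea was not tested.

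**Figure D3:**
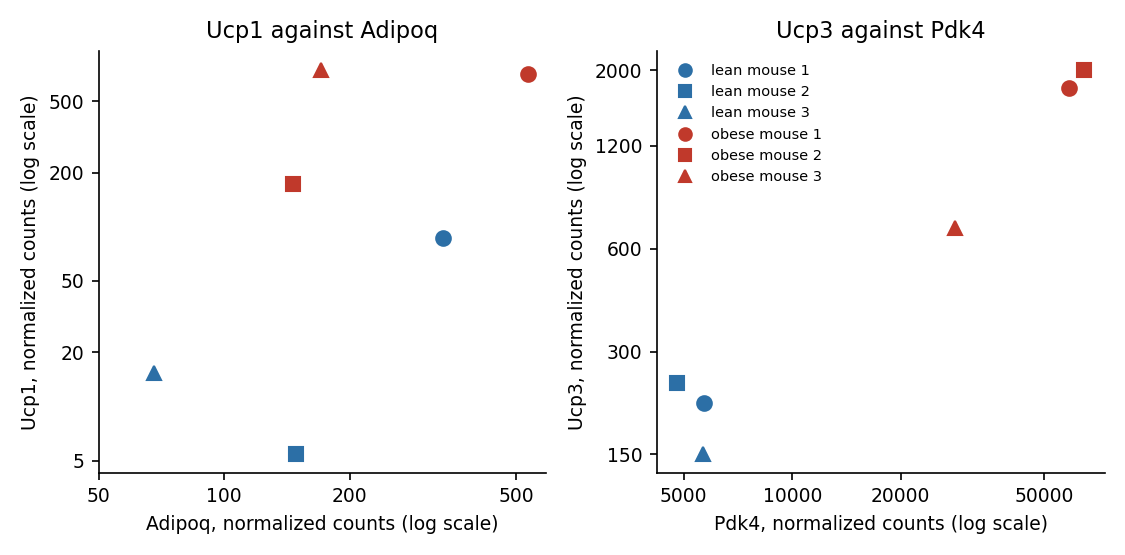
Left, Ucp1 against Adipoq, and right, Ucp3 against Pdk4, in normalized counts on log axes, with 1 symbol per mouse. Obese mouse 2 and lean mouse 2 lie at nearly the same Adipoq (146 and 149) but far apart in Ucp1. As Ucp1 was chosen by its difference between the groups, nothing is read from this pair. In the right panel obese mouse 3 is the lowest obese mouse in both genes.

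Genes selective for brown adipocytes other than the members gave a mixed picture. Of 16 listed, 9 were tested, limma and edgeR called 0 at an adjusted p under 0.05, 4 had an unadjusted p under 0.05 in limma (Adrb3, Aspg and Letmd1 higher, Gmpr lower), and DESeq2 called Adrb3 and Slc27a2, both higher. Their median log2 fold change was 0.30, against 0.0049 over all genes tested. Adrb3, the β3-adrenergic receptor of adipocytes, had 169, 37.7 and 145 normalized counts in obese and 62.7, 29.4 and 19.7 in lean mice, a log2 fold change of 1.53 that did not pass (limma adjusted p = 0.304), and its groups overlapped through obese mouse 2. Slc27a2 had 24.1, 5.1 and 18.2 in obese and 1.12, 0 and 1.09 in lean mice, and its mean was below that required in limma. Prdm16 and Ebf2, transcription factors of the brown fat lineage, had log2 fold changes of 0.01 and 0.14 with overlapping groups (limma adjusted p = 0.995 and 0.841). Lhx8 was at 0 in every mouse, and the classical brown fat markers Zic1 and Kng2 reached at most 2.24 and 3.41 normalized counts. The whole list summed to between 2559 and 2883 normalized counts in obese and between 2491 and 2812 in lean mice.

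Of 6 beige adipocyte genes 4 were tested, and limma, edgeR and DESeq2 called 0, and 1 had an unadjusted p under 0.05 in limma, Slc36a2, which was lower (log2 fold change -0.51, limma adjusted p = 0.208). Over these 4 the median was 0.46 on the log2 scale. The summed level of all 6 was 840.3 to 1138 normalized counts in obese and 1035 to 1265 in lean mice, and Tmem26 stayed at or below 4.02. The oxidative genes that brown fat shares with heart muscle had a median log2 fold change of 0.28 over 10 genes tested. Among them only Plin5, a coat protein of lipid droplets in oxidative tissue, passed in limma, with 1162, 1099 and 739 normalized counts in obese and 545, 532 and 381.5 in lean mice (log2 fold change 1.03, limma adjusted p = 0.0485), and it passed in 1 of the 6 fits that leave out 1 mouse. edgeR called 0 of the list and DESeq2 called Cpt1b and Plin5, and 4 had an unadjusted p under 0.05 in limma, all higher. The cytochrome oxidase subunits Cox7a1 and Cox8b had log2 fold changes of -0.32 and -0.21 (limma adjusted p = 0.422 and 0.603). Ppargc1a, the coactivator that induces Ucp1 in brown fat, had 0.39 (limma adjusted p = 0.391) with overlapping groups.

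The arm from the adrenergic receptor to cAMP, which controls Ucp1 and Dio2 in brown fat, had 17 genes tested and a median log2 fold change of 0.18. Limma and edgeR called 0 of them, with 3 higher and 2 lower at an unadjusted p under 0.05 in limma, and DESeq2 called 3, all higher. Adrb1, the main β-adrenergic receptor of cardiomyocytes, had 331.5, 318 and 355.5 normalized counts in obese and 475, 444 and 460.2 in lean mice, a log2 fold change of -0.46 (limma adjusted p = 0.144), with every obese mouse below every lean mouse. The adenylyl cyclases Adcy6 and Adcy4 had log2 fold changes of 0.62 each (limma adjusted p = 0.0862 and 0.115), and the catalytic subunit Prkaca of protein kinase A had -0.34 (limma adjusted p = 0.244). None of these 4 passed the threshold of limma.

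Transcription factors and coregulators of thermogenic genes were close to 0 as a list, with a median log2 fold change of 0.06 over 18 genes tested. Limma and edgeR called 0 and 1 had an unadjusted p under 0.05 in limma, while DESeq2 called 1, in both cases Cebpb. Cebpb, a C/EBP factor induced early in adipocytes, had 965, 875 and 804 normalized counts in obese and 482, 514 and 245 in lean mice (log2 fold change 1.16, limma adjusted p = 0.0657). The fatty acid receptors Ppara and Ppard had log2 fold changes of 0.02 and -0.03, and their partner Rxra had 0.14, all with overlapping groups (limma adjusted p = 0.993, 0.959 and 0.725). Tfam, the factor that maintains mitochondrial DNA, had -0.15 (limma adjusted p = 0.661).

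Around Dio2, 10 genes of thyroid hormone handling and response were tested. Their log2 fold changes had a median of -0.31, and 1 of the 10 was above 0. Limma called 0 of them, with 1 higher and 5 lower at an unadjusted p under 0.05, edgeR called 0, and DESeq2 called Klf9, which was higher. Klf9, a hormone-responsive transcription factor, had a log2 fold change of 0.54 (limma adjusted p = 0.149), and the receptor gene Thra had -0.31 (limma adjusted p = 0.301), with every obese mouse below every lean mouse. Thrsp, named for its response to thyroid hormone, had 261, 179 and 280.5 normalized counts in obese and 480.3, 556 and 252 in lean mice, with overlapping groups (log2 fold change -0.79, limma adjusted p = 0.285). The other deiodinases were at or near the limit, Dio1 with 0 in every mouse and Dio3 with 2.74 normalized counts in lean mouse 2 and 0 elsewhere, so Dio2 was the deiodinase with a measurable level in these atria.

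Next to Elovl3 and Cidea, their own enzyme and protein families were examined. Elongases and desaturases around Elovl3 had a median log2 fold change of 0.04 over 14 genes tested, limma and edgeR called 0, with 4 at an unadjusted p under 0.05 in limma, all lower, and DESeq2 called Scd1 and Fads2, both lower. Scd1, the stearoyl-CoA desaturase, had 1289, 1264 and 907 normalized counts in obese and 2229, 3444 and 1569 in lean mice (log2 fold change -1.01, limma adjusted p = 0.102), and Fads2 had -0.86 (limma adjusted p = 0.0797), both with every obese mouse below every lean mouse. In the CIDE family, Cidec, which fuses lipid droplets in white adipocytes, had 708, 197 and 272 normalized counts in obese and 530, 218 and 86.4 in lean mice, and Cideb had a log2 fold change of -0.78 (limma adjusted p = 0.379). Of the 4 genes of that family and of the DNA fragmentation factor tested, limma, edgeR and DESeq2 called 0, with 1 at an unadjusted p under 0.05 in limma.

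Mitochondrial carriers related to the uncoupling proteins had differences in either direction. Over 9 genes tested the median log2 fold change was 0.11, limma and edgeR called 0, with 1 higher and 3 lower at an unadjusted p under 0.05 in limma, and DESeq2 called 1, Slc25a20. Slc25a20, the carnitine-acylcarnitine carrier, had 2502, 2072 and 1751 normalized counts in obese and 1461, 1528 and 1244 in lean mice (log2 fold change 0.57, limma adjusted p = 0.115). The carriers sometimes named UCP4 and UCP5, Slc25a27 and Slc25a14, had log2 fold changes of 0.23 and 0.15 (limma adjusted p = 0.799 and 0.863), and the dicarboxylate carrier Slc25a10 had -0.48 (limma adjusted p = 0.225). The adenine nucleotide carrier Slc25a4, which also leaks protons, had 45808 to 57465 normalized counts across all mice and a log2 fold change of -0.03 (limma adjusted p = 0.962).

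Heat cycles that do not need UCP1, by creatine, calcium or lipid, had a median log2 fold change of 0.04 over 15 genes tested. Limma called 0 with 3 higher and 1 lower at an unadjusted p under 0.05, and edgeR and DESeq2 called 0. Pck1, which supplies glycerol phosphate for fatty acid re-esterification in fat, had 1654, 375 and 745 normalized counts in obese and 398, 83.5 and 56.8 in lean mice, a log2 fold change of 2.63 (limma adjusted p = 0.11). Its groups overlapped through obese mouse 2 and lean mouse 1, the same mice that were closest for Ucp1. Sln, the sarcolipin of atrial calcium cycling, had -0.32 (limma adjusted p = 0.352). Of the secreted thermogenic signals 3 of 6 genes were tested, with a median of 0.20. Limma and edgeR called 0, with 1 at an unadjusted p under 0.05 in limma, and DESeq2 called 1, in both cases Gdf15 (log2 fold change 1.86, limma adjusted p = 0.12), while Fgf21 had at most 5.1 normalized counts.

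Genes of fatty acid oxidation and fatty acid response had the highest median log2 fold change of the lists. It was 0.70 over 16 genes tested, 15 of them above 0, and 5 rose at an adjusted p under 0.05 in limma. edgeR called 3 and DESeq2 13 of them, all higher. Angptl4, a secreted inhibitor of lipoprotein lipase, had a log2 fold change of 5.08 (limma adjusted p = 0.000116) and Plin2, a lipid droplet protein, 0.88 (limma adjusted p = 0.0458). Pdk4, which blocks glucose oxidation through pyruvate dehydrogenase, had 58780.0 normalized counts in obese mouse 1, 64656 in mouse 2 and 28363 in mouse 3, the order seen for Ucp3, against 4800.3 to 5700.2 in lean mice (log2 fold change 3.15, limma adjusted p = 0.000719). Acot2, a mitochondrial acyl-CoA thioesterase, had 2846, 2515 and 1403 in obese and 779, 769.9 and 637 in lean mice (log2 fold change 1.57, limma adjusted p = 0.0172). Acadm, the medium chain dehydrogenase, was the gene of the list below 0, with -0.02 (limma adjusted p = 0.962). With 1 mouse left out in turn, Angptl4 and Pdk4 passed in 6 of 6 fits, Acot2 in 2 and Plin2 in 1.

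In all, 116 of the 124 related genes were tested and 6 of them (5.17%) rose at an adjusted p under 0.05 in limma, against 0.484% of all genes tested, and 0 fell. Of the 116, 44 had an unadjusted p under 0.05, against 1864 (12.2%) of all 15275 genes tested. The lists were chosen with earlier results of these data known, and 5 of the 6 belong to the list of fatty acid oxidation. edgeR called 3 of the related genes, against 87 of all genes tested, and DESeq2 24, against 440. With 1 mouse left out between 2 and 15 passed, against between 14 and 318 of all genes tested. Both counts were highest without obese mouse 3.

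**Figure D4:**
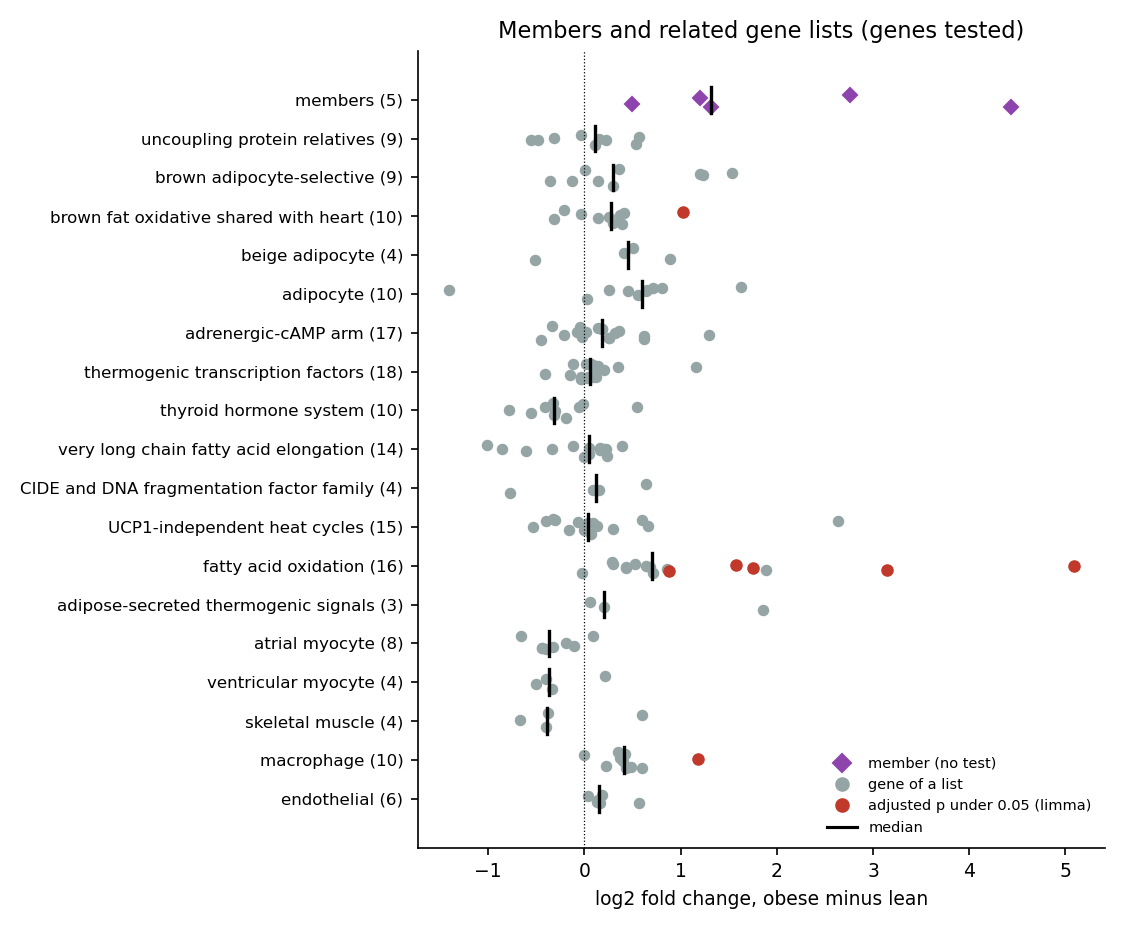
Log2 fold change of obese minus lean atria for the 5 members in the fit (purple diamonds, without a test) and for each gene tested of the related and marker lists (circles, red where limma gave an adjusted p under 0.05, number of genes in parentheses, black line the median). The oxidation list has a median of 0.70 and the adipocyte, beige adipocyte and macrophage markers have 0.60, 0.46 and 0.41, while all lists lie between -0.39 and 0.70.

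Markers of cell types other than adipocytes are given for the members they may accompany. For Ucp2, which leukocytes express, 10 macrophage markers summed to between 11179 and 13313 normalized counts in obese and between 8238 and 11109 in lean mice. These sums did not overlap, but obese mouse 2 (11179) and lean mouse 1 (11109) nearly met. The log2 fold changes of these markers had a median of 0.41, with 9 of 10 above 0, and 5 had an unadjusted p under 0.05 in limma, all higher. Of these, Itgam rose at an adjusted p under 0.05 in limma (log2 fold change 1.18, limma adjusted p = 0.0106), in 3 of the 6 fits with 1 mouse left out, and Ptprc, the general leukocyte marker, had 121, 247 and 362 in obese and 161, 177 and 154 in lean mice. None of the macrophage markers was at 0. Their centered correlations with Ucp2 had a median of 0.37 (-0.31 to 0.72, 9 of 10 above 0), and their part in the level of Ucp2 was not tested. For Ucp3, 8 skeletal muscle markers summed to 522 to 658 normalized counts in obese and 391 to 544 in lean mice, most of it Atp2a1, and the fast myosin genes Myh1, Myh2 and Myh4 reached at most 8.21. The 4 skeletal muscle markers tested had a median of -0.39, and limma, edgeR and DESeq2 called 0, with 1 at an unadjusted p under 0.05 in limma (Atp2a1). Endothelial markers had a median of 0.15 over 6 genes, and their sums did not overlap between the groups, 15372 to 16980.1 against 12934 to 13755. Limma and edgeR called 0 of them, with 1 at an unadjusted p under 0.05 in limma, and DESeq2 called that gene, Pecam1. Atrial myocyte markers had a median of -0.36 over 8 genes, limma and edgeR called 0, with 3 lower at an unadjusted p under 0.05 in limma, and DESeq2 called Tnnt2, which was lower. Ventricular myocyte markers had -0.37 over 4 genes, and limma, edgeR and DESeq2 called 0, with 0 at an unadjusted p under 0.05.

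The log2 fold changes of the 5 members in the fit kept their direction with each mouse left out, under each other setting and with edgeR and DESeq2. Ucp2 ranged from 0.40, without lean mouse 3, to 0.66, without lean mouse 1, Ucp3 from 2.48 to 3.25, and Dio2 from 1.06 to 1.56 with 1 mouse left out, and Cidea was at its lowest, 1.08, without obese mouse 1. Other settings and tools moved Ucp1 to between 3.93 and 4.53. As the members were chosen by this difference, their direction in these fits was fixed by the choice.

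**Figure D5:**
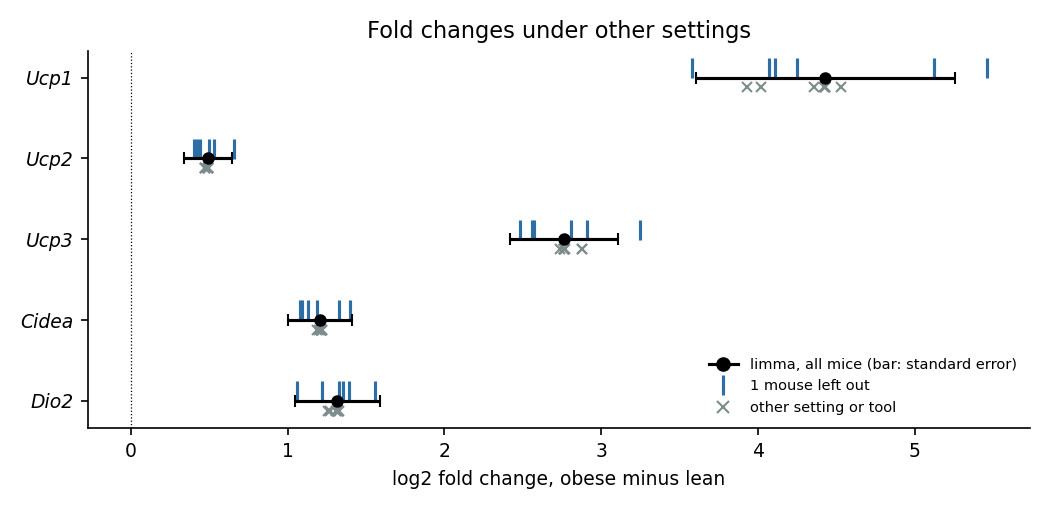
Log2 fold change of the 5 members, obese minus lean, from limma with all 6 mice (black point, bar 1 standard error), with 1 mouse left out in turn (blue ticks) and under other settings or tools (gray crosses). Ucp1 spans 3.58 to 5.46 over the fits with 1 mouse left out, wider than Ucp2 with 0.40 to 0.66.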

How the data were processed

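RNA of the atria of 3 obese and 3 lean mice was sequenced. The authors used STAR to align the reads to GRCm38, took unique alignments only, counted them per Ensembl gene by means of Salmon and scaled the counts in DESeq2 (its version and that of the aligner are not given in the sources used here). The deposited signal is this normalized count. The authors' log2 fold changes with standard errors, p-values, Wald and ranking scores and mean signal were also deposited, and were not used. In each library 100% of values were whole multiples of the smallest (tolerance 0.01), which gave back the reads. 1 row without a gene name was left out and held no reads.

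The comparison of obese and lean atria used limma 3.58.1 (R 4.3.3, lmFit and eBayes, with trended variance). It was fitted to log2(normalized count + 1) over genes with a mean of at least 10, with Benjamini-Hochberg adjustment at 0.05. The fit was also run on simulated counts. Their spread was set and not taken from these mice, so that run does not vouch for the calls made here. The 1 added before the log pulls the change of low genes toward 0, and with 0.1 added in its place Ucp1 was at 4.53. Even so, Ucp1 had a larger log2 fold change on this scale (4.43) than in DESeq2 (3.93) or edgeR (4.02). As reads could be recovered, edgeR 4.0.16 (quasi-likelihood, TMM, same genes) and DESeq2 1.42.0 (all 24679 genes with reads) were run on them as alternatives. GENCODE names matched 42462 of 43432 identifiers (97.8%). Genes named are the members, in each list those past the threshold or otherwise at most 2 in each direction with the smallest p, markers, and the nearest 5 genes by correlation. A few other list genes (Ppargc1a, Ppara, Cox7a1, Slc25a4 and the like) were named for their known role after their values were seen. Some genes that the rule picks are not reported here. The members and lists were chosen with earlier results of these data known. Near-identical gene copies and genes overlapping on opposite strands are uncertain.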

Additional observations from a re-analysis of the deposited data

How the results depend on the processing

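Counts over many genes depended on the model. The members' direction was fixed by their choice and says nothing on stability. Of 15275 genes tested, 114 had an adjusted p under 0.05 in limma, while DESeq2, fitted to all 24679 genes with reads, called 443, of which 440 were among those tested by limma. The count was 0 without a variance trend (1717 at an unadjusted p under 0.05), and with 1 mouse left out between 14 and 318 (48, 14 and 19 without lean mouse 1, 2 or 3, and 50, 24 and 318 without obese mouse 1, 2 or 3). Over all genes edgeR called 87, and limma called 84 after mitochondrial genes were left out. Of the related genes 6 passed in limma, 3 in edgeR, 24 in DESeq2 and 3 after mitochondrial genes were left out. Without a variance trend 0 of them passed (34 at an unadjusted p under 0.05). With 1 mouse left out 2 to 15 passed (15 without obese mouse 3 and 2 or 3 without any other). Plin2 and Plin5 also missed the threshold in edgeR (adjusted p = 0.0569 for both), without mitochondrial genes and after quantile normalization. The cause of these shifts was not tested.

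Same-numbered mice do not come from the same animal, and their deviations from the group means correlated at 0.12, -0.03 and 0, so the numbers were not taken as pairs. With the replicate number as a block, limma called 157 genes and 12 of the related genes. Some genes turned sign with 1 mouse left out, with ranges of -0.08 to 0.02 for Acadm (0.01 without obese mouse 2) and -0.01 to 0.34 for Vegfa. Cidec, at 0.64 with all mice, ranged from -0.02, without lean mouse 3, to 1.28. With merged exon length in place of transcript length, a choice made after seeing the data, Ucp2 exceeded Ucp3 per kb by 22.9 times in lean and 4.32 times in obese atria. Elovl3 ratios without a mouse were also chosen after seeing the data, and depth limits that gene. Floors cover counting error only.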
